A study of Mus musculus with 145 samples.

Results

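This report follows 33 genes of meiotic chromosome structure and recombination through the reprogramming of mouse spermatogonial stem cells (SSCs) to a pluripotent state. The members were listed by gene symbol, by a rule that uses no measured value, although earlier results of these data were known when the list was made, and 33 of the 34 listed symbols stood among the 28692 genes of the UMI count tables. The symbol *Majin* did not. Its older name in RefSeq, *1700123I01Rik*, did, and it had 6.22 ± 3.8 CPM in SSC1-4 (SD, n = 36 libraries), 6.52 ± 7.39 in Meiotic 1 (n = 6), 2.34 ± 0.52 in Meiotic 2 (n = 5) and 9.22 ± 6.26 in RPG3 (n = 8). It enters none of the counts given here.

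In meiosis, each chromosome is folded into loops along a protein axis built of cohesin and axis proteins, and the axes of homologous chromosomes are joined by a central region to form the synaptonemal complex. Programmed DNA breaks are made on the axes, their ends invade the homologous chromosome, and some of these joints mature into crossovers. In the mouse testis this programme runs in spermatocytes, downstream of the spermatogonial stem cells and differentiating spermatogonia from which they arise. Embryonic stem cells keep many germline genes silent.

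The members were read in 6 roles. The 8 genes of axes and cohesin were *Sycp2*, *Sycp3*, *Hormad1*, *Hormad2*, *Smc1b*, *Stag3*, *Rec8* and *Rad21l*. The 5 genes of the central region were *Sycp1*, *Syce1*, *Syce2*, *Syce3* and *Tex12*. The 4 genes of break formation were *Spo11*, *Mei1*, *Mei4* and *Prdm9*. The 6 genes of strand exchange and its repair proteins were *Dmc1*, *Psmc3ip*, *Mnd1*, *Brca2*, *Meiob* and *Tex15*, and the 6 genes of crossovers were *Msh4*, *Msh5*, *Mlh3*, *Rnf212*, *Hfm1* and *Tex11*. The 4 genes with other roles were *Meioc*, *Trip13*, *Brdt* and *Dpep3*.

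The SSCs came from male B6D2F1 pups of 5.5 dpp, offspring of C57BL/6 females and DBA/2 males, that carried Oct4-EGFP or EGFP as a transgene. They grew on fibronectin-coated plates with MEF feeders that had been stopped with mitomycin C, in SSC medium with GDNF, bFGF, EGF and ESGRO (LIF), and all clusters of days 0 to 27 shared this background and medium. Single cells were picked by mouth pipette from SSC-like and PSC-like colonies on days 0 to 27 of this original condition (46 libraries, 4339 annotated cells), so the picked cells do not sample the dish in proportion. Established germline-derived pluripotent cells (gPSCs) of passages P1 and P15 and mouse embryonic stem cells (ESCs) gave 1 library each. Per the study's methods, pluripotent lines were kept on feeders in N2B27 medium with CHIR99021, PD0325901 and ESGRO, so they differ from the reprogramming cells in medium as well. Each cell had a cluster name assigned by the authors, who drew the clusters from these transcriptomes. SSC1-4 here pools 4 SSC clusters. RPG1 to RPG4 are, in the authors' order, the clusters of the branch that reached pluripotency, and Meiotic 1 and Meiotic 2 belong to the branches that did not. The authors named the meiotic clusters from *Spo11* and *Dpep3*, so the levels of these 2 members in those clusters are a description.

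UMIs were summed per library and cluster for each pair with 5 cells or more. A level is given as CPM, the UMIs of a gene scaled by the total UMIs of its sum. Each total was first multiplied by its TMM factor, a size factor from edgeR. This left 36 libraries for SSC1-4 (2248 cells), 7 for RPG1 (321), 3 for RPG2 (44), 8 for RPG3 (261), 2 for RPG4 (21), 6 for Meiotic 1 (141) and 5 for Meiotic 2 (352). A gene was called higher or lower at a Benjamini-Hochberg adjusted p below 0.05 over all 21172 genes tested together with a change of 0.5 or more on the natural-log scale, by edgeR's quasi-likelihood test. All meiotic sums were of day 16, in both batches, and 5 of those libraries also held at least 5 SSC1-4 cells. All RPG2 sums were of batch B2, and both RPG4 sums were of batch B1 and day 20, so fits within a batch or with the library as a block were run as alternatives. Since clusters were drawn on the genes then compared, p-values between clusters describe them and do not test them independently.

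The promoters are shown because 23 members were lower in RPG3 than in SSC1-4. The part of promoter motifs in that difference was not tested. RefSeq windows of GRCm38.p6, 250 bases before to 50 bases after the start, were matched for 29 members (34 promoters). *Spo11*, *Meiob*, *Tex11* and *Tex15* were not matched. The E-box CACGTG, bound by MAX and MGA, was found in 9 of 34 members' promoters (26.5%) and in 7.15% of all 32851 promoters. TCCCGC on either strand, the core of an E2F site, was found in 20 (58.8%) and in 20.0% of all. In the members' promoters the motifs never overlapped, and both were present in 8 (23.5%, against 1.99% of all). The median GC content was 60.7% in the members' promoters and 52.7% in all. The median ratio of observed to expected CpG was 0.713 and 0.384. Both motifs hold a CpG, and the shares were not matched for base composition. Capitals mark the 2 motifs in *Tex12* (chr9:50561219-50561518, minus strand) and *Rnf212* (chr5:108774978-108775277, minus strand), both far lower in RPG3, and in *Hormad1* (chr3:95559427-95559726, plus strand), which was not called there. *Rad21l* (chr2:151668484-151668783, minus strand), the member called in Meiotic 1, holds neither motif in this window, and its GC content there was 29%.
Tex12: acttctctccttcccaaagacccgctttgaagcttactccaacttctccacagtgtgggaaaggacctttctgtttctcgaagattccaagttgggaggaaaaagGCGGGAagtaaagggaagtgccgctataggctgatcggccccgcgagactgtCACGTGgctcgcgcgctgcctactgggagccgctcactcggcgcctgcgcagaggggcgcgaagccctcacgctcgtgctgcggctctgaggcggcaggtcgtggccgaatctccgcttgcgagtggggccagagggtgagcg
Rnf212: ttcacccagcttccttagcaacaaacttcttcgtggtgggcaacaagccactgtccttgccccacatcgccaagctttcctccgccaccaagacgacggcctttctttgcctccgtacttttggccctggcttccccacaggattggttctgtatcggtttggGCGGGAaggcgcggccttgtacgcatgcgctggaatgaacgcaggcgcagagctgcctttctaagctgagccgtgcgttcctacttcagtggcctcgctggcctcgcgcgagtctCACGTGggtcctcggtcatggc
Hormad1: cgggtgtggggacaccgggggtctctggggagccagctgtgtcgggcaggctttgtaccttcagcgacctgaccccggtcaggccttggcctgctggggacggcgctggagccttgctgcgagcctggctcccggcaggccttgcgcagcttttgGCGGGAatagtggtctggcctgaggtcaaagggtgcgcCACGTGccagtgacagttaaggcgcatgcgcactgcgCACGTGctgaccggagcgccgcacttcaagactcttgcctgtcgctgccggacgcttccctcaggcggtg
Rad21l: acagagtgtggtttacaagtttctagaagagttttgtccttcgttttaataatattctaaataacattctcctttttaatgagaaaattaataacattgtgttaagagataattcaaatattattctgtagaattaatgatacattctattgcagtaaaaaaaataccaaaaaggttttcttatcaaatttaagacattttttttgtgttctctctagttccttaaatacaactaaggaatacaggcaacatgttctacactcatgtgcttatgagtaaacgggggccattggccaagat
Among members lower in RPG3 than in SSC1-4, 10 of 20 promoters held TCCCGC (50%) and 6 held CACGTG (30%). Among those not called, 9 of 11 held TCCCGC (81.8%) and 3 held CACGTG (27.3%). *Syce2*, *Hormad1* and *Prdm9* enter the latter with 2 promoters each. These shares are descriptions, and their difference was not tested.

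Before any branch, the module was already transcribed in the SSC clusters. The summed level of the 33 members was 3556 ± 402 CPM (SD, n = 36) in SSC1-4, with a range of 2906 to 4500. At 50000 UMIs per cell, to which every cell was thinned, the median SSC held a UMI of 20 of the 33 members, and *Sycp1*, the transverse filament of the synaptonemal complex, had a UMI in 2098 of 2100 SSCs (99.9%). *Sycp1* had a UMI in 2 of 43 thinned ESCs (4.65%). The median ESC held 7 members, and ESCs are no empty reference for the module, since *Syce2*, *Brca2* and *Trip13* among others were present in them. By SSC cluster, the summed level was 3803 CPM in SSC1, 3813 in SSC2, 3313 in SSC3 and 3104 in SSC4.

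The question put to the meiotic clusters was whether they raised the module as a whole or single genes. Of the 33 members, 1 was higher and 0 lower in Meiotic 1 than in SSC1-4, where 1.62% of all genes tested were called higher and 1.14% lower. In Meiotic 2, 0 members were called by edgeR's quasi-likelihood test (1.39% of all genes higher and 0.713% lower). Called shares of this size are near the background. At an unadjusted p under 0.05, 1 member was higher and 1 lower in Meiotic 1, and 2 were higher and 2 lower in Meiotic 2. At that threshold 1618 of all 21172 genes were higher and 2483 lower in Meiotic 1, and 1444 higher and 2079 lower in Meiotic 2. DESeq2 called 1 member in Meiotic 2, *Meiob*, as lower. The median log2 fold change of the members was 0.11 in Meiotic 1 and 0.03 in Meiotic 2, and the medians over all genes were -0.10 and -0.02. Between the meiotic clusters, 0 of 33 members were called by edgeR or by DESeq2 (0.175% of all genes higher in Meiotic 1 and 0.0236% lower). At an unadjusted p under 0.05, 2 members were higher and 1 lower, beside 896 and 1265 of all genes. Both clusters come from the same day 16 libraries, and with the library as a block 1 member, *Dmc1*, was called higher in Meiotic 1.

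The summed level of the members did not set the meiotic clusters apart. Meiotic 1 had 3197 to 3842 CPM over its 6 libraries (mean 3519 ± 215) and Meiotic 2 had 3292 to 3822 over its 5 (mean 3562 ± 222), both inside the range of SSC1-4. Central region genes had a summed level of 1567 CPM in SSC1-4, 1500 in Meiotic 1 and 1692 in Meiotic 2. Genes of axes and cohesin had 938, 870 and 853, and those of break formation 39.7, 47.8 and 44.9. For 23 of the 33 members, the 95% confidence interval of the difference from SSC1-4 lay within 2-fold in either direction, in Meiotic 1 and likewise in Meiotic 2, so a rise of 2-fold was outside the interval for these. For the other 10 in each cluster, *Rad21l*, *Spo11*, *Dpep3*, *Mei1* and *Prdm9* among them, the interval reached past 2-fold, so a change of that size was not excluded. The median log2 standard error over members was 0.28 and 0.30.

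**Figure D1:**
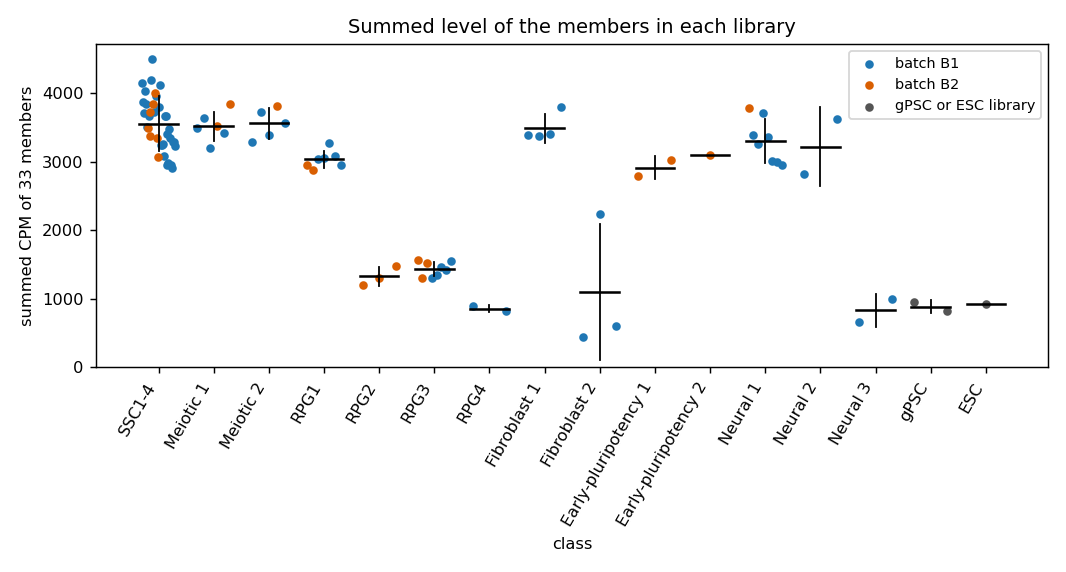
Summed CPM of the 33 members in each library (points, coloured by batch) by cell class, with the mean and its SD as a bar. The libraries of SSC1-4, Meiotic 1 and Meiotic 2 overlap between 2906 and 4500 CPM, RPG1 lies at 2881 to 3272, and all libraries of RPG2, RPG3 and RPG4 lie below 1560.

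The member called in Meiotic 1 was *Rad21l*, a meiosis-specific kleisin subunit of cohesin (chromosome 2, 151645404 to 151668533, minus strand, GRCm38). Its level in Meiotic 1 was 2.75, 5.85, 8.04, 6.31, 46.4 and 3.89 CPM in day 16 replicates 1 to 6. In Meiotic 2 it was 3.04, 5.85, 3.25, 0.574 and 1.18 CPM in replicates 1 to 5, and over the 36 libraries of SSC1-4 the lowest, median and highest were 0, 2.29 and 14.3. Of the Meiotic 1 libraries, only replicate 5 lay above the SSC1-4 range, and it rested on 8 cells with 153 UMIs of *Rad21l*, 79 of them in 1 cell. The log2 difference between Meiotic 1 and SSC1-4 was 2.15 ± 0.55 (4.45-fold higher, adjusted p = 0.0125, edgeR). Without replicate 5 it was 0.96, with an adjusted p of 0.435 by edgeR, and with the library as a block it was 0.94, with an adjusted p of 0.899 by edgeR. In Meiotic 2 the difference was 0.03 ± 0.69 (adjusted p = 1, edgeR).

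*Spo11*, the topoisomerase-like protein that makes meiotic DNA breaks (chromosome 2, 172977700 to 172993576, plus strand), is one of the genes that gave the clusters their name. Its level in Meiotic 1 was 7.55, 5.85, 2.87, 8.79, 16.4 and 12.7 CPM in replicates 1 to 6, and in Meiotic 2 it was 12.7, 12.9, 11.5, 11.3 and 7.96 in replicates 1 to 5. SSC1-4 libraries ran from 0.229 through a median of 5.01 to 12.3 CPM. Apart from Meiotic 1 replicate 3, all libraries lay above the SSC1-4 median, and most of them lay within the SSC1-4 range. The log2 difference from SSC1-4 was 0.86 ± 0.56 in Meiotic 1 (adjusted p = 0.390) and 1.18 ± 0.58 in Meiotic 2 (adjusted p = 0.291, edgeR), neither of them called. In thinned cells, *Spo11* had a UMI in 34 of 144 cells of Meiotic 1 (23.6%), 79 of 356 of Meiotic 2 (22.2%), 13 of 47 SSC1-4 cells of day 16 (27.7%) and 176 of 2053 of the other days (8.57%), and in 0 of 43 ESCs. Unthinned shares were 41.0%, 39.3%, 29.4% and 16.8%, with 0 of 45 ESCs. The median UMIs per cell were 289088 in Meiotic 1, 230911 in Meiotic 2, 248474 in SSC1-4 and 321636 in ESCs.

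*Dpep3*, a testis dipeptidase anchored to the membrane (chromosome 8, 105973513 to 105979429, minus strand), varied widely between libraries of the meiotic clusters. In Meiotic 1 it had 11.4, 57.1, 1.15, 8.56, 0.303 and 82.7 CPM in replicates 1 to 6. Meiotic 2 had 23.4, 14.3, 7.30, 23.8 and 4.60 CPM in replicates 1 to 5. In SSC1-4 the lowest, median and highest libraries had 0, 8.65 and 78.4 CPM. All meiotic libraries but Meiotic 1 replicate 6 lay within that range, whose highest value is itself of day 16. SSC1-4 libraries of the other days reached 27.7 CPM, and Meiotic 1 replicates 2 and 6 lay above that. In thinned cells, *Dpep3* had a UMI in 74 of 144 cells of Meiotic 1 (51.4%), 59 of 356 of Meiotic 2 (16.6%), 12 of 47 SSC1-4 cells of day 16 (25.5%), 286 of 2053 of the other days (13.9%) and 1 of 43 ESCs (2.33%). Unthinned shares were 70.8%, 32.4%, 30.9%, 24.3% and 6.67%. Of the 102 unthinned Meiotic 1 cells with a UMI, 72 were from replicate 6, which held 81 of the cells. The log2 difference was 1.16 ± 0.60 in Meiotic 1 (adjusted p = 0.275) and 0.27 ± 0.70 in Meiotic 2 (adjusted p = 0.918, edgeR), and with the library as a block it was -0.69 and -0.33. *Dpep3* overlaps the lincRNA *Gm45752* on the opposite strand over 5917 bases, and whether counting used strand was not given in the sources used here.

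**Figure D2:**
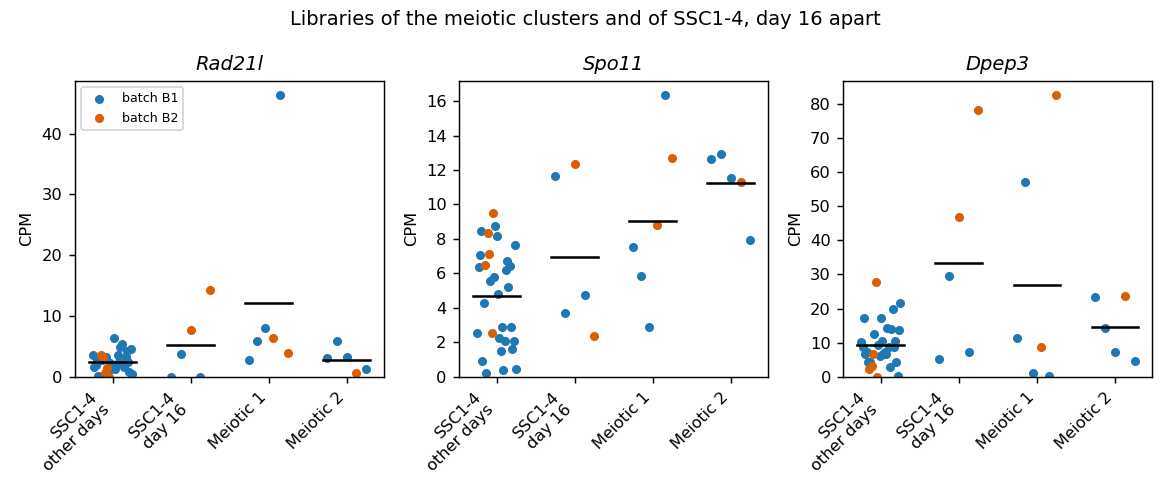
CPM of *Rad21l*, *Spo11* and *Dpep3* in each library (points; the line is the mean) for SSC1-4 cells of the other days, SSC1-4 cells of day 16, Meiotic 1 and Meiotic 2. The mean of *Rad21l* in Meiotic 1 is pulled up by 1 library at 46.4 CPM, *Spo11* lies at 7.96 to 12.9 CPM in Meiotic 2, and *Dpep3* spreads from 5.19 to 78.4 CPM in SSC1-4 cells of day 16 and from 0.303 to 82.7 in Meiotic 1.

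Day 16 itself was compared with the neighbouring days 14 and 18 over whole libraries, a contrast of labelled groups. It uses no cluster name, but day 16 was chosen because most cells named meiotic came from it. It held 141 of 144 Meiotic 1 cells and 353 of 361 Meiotic 2 cells, beside 68 SSC1-4 cells. Those clusters were named from *Spo11* and *Dpep3*, so the day 16 levels of these 2 members are not independent of that naming. In such sums, more cells with a transcript and more of it per cell cannot be told apart. There, 2 members were called higher and 1 lower, where 3.49% of 21605 genes were higher and 2.66% lower. *Dpep3* had 20.8, 28.98, 6.79, 27.9, 4.01 and 81.6 CPM in the 6 day 16 libraries and was 1.99 ± 0.55 higher on the log2 scale (adjusted p = 0.0149, edgeR). *Rad21l* had 2.88 to 8.16 CPM against 0.144 to 3.08 on days 14 and 18, a log2 difference of 1.49 ± 0.48 (adjusted p = 0.0385, edgeR). *Meiob*, a single-strand DNA binding partner in strand exchange, was 1.12 lower on the log2 scale (SE 0.35, adjusted p = 0.0323, edgeR). *Spo11* had 11.7, 10.3, 10.7, 11.04, 9.11 and 12.6 CPM on day 16 and 0 to 8.40 CPM on days 14 and 18. Its 6 libraries of day 16 were all above those of the neighbouring days, but its log2 difference of 1.61 ± 0.69 was not called (adjusted p = 0.122, edgeR). Within batch B1 alone 1 member was called, *Meiob*, and within B2 alone 0. In the same contrast the pluripotency markers *L1td1*, *Nanog* and *Sox2* were lower (3 of 6), as were *Cdk1* and *Mki67* of the cycling markers (2 of 7) and *Gfra1* and *Nanos2* of the undifferentiated spermatogonia (2 of 8). Day 14 replicates 5 and 6 held RPG2 cells, and day 18 replicates 3 and 5 held RPG1 and RPG3 cells. With only the cells of SSC1-4 and the meiotic clusters in the sums, *Dpep3* was the 1 member called, and the log2 difference was 1.39 for *Rad21l* (adjusted p = 0.106) and -1.20 for *Meiob* (adjusted p = 0.0720, edgeR). The part of the markers of cycling cells and undifferentiated spermatogonia was not tested.

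Of the day 16 libraries, 5 also held at least 5 cells named SSC1-4, with 8, 10, 33, 7 and 8 cells in replicates 1, 2, 4, 5 and 6. Of the 68 SSC1-4 cells of day 16, 55 were SSC1, and of the 2265 SSC1-4 cells of all days 818 were. SSC cluster and day thus cannot be told apart here. In a comparison chosen after the values were seen, members in these SSC1-4 cells were set against SSC1-4 cells of all other days. There, 3 members were called higher and 0 lower (3.82% of 16905 genes higher and 5.44% lower). These were *Stag3*, *Prdm9* and *Dpep3*. *Stag3*, a cohesin subunit of meiosis, had 158, 144, 130, 211 and 266 CPM on day 16 and 82.0 to 154 on the other days, 0.74 ± 0.14 higher on the log2 scale (adjusted p = 0.000405, edgeR). *Prdm9*, the histone methyltransferase that sets the sites of breaks, had 63.5, 9.21, 2.36, 73.4 and 0 CPM, so 2 of 5 libraries carried its difference, each with under 10 cells. *Dpep3* had 5.19, 29.5, 46.9, 7.10 and 78.4 CPM against 0 to 27.7 on the other days, 1.84 ± 0.47 higher (adjusted p = 0.00631, edgeR). The log2 difference of *Spo11* was 0.73 ± 0.54 (adjusted p = 0.370) and that of *Rad21l* 1.05 ± 0.66 (adjusted p = 0.282, edgeR). Without replicate 6 only *Prdm9* was called, and without replicate 4 the count was 6. Markers of cell state moved in this contrast as well. *Dmrtb1* and *Sohlh1* of the differentiating spermatogonia were higher (2 of 6), and of the undifferentiated markers *Lin28a* was higher and *Gfra1* and *Nanos2* were lower (3 of 8). Their part in the members' values was not tested.

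Per cell, the meiotic clusters held as many members as the SSCs. The median number of members with a UMI at 50000 UMIs was 21 in Meiotic 1 and 20 in Meiotic 2, against 20 in SSC1-4, and library medians ran from 19.5 to 22.5, 19.5 to 21 and 17 to 21. Cells of Fibroblast 1 also held 21, with a summed level of 3491 CPM and 6 fibroblast markers that summed to 241 CPM. Of 4464 annotated cells, 232 had too few UMIs and were left out of the thinned counts.

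**Figure D3:**
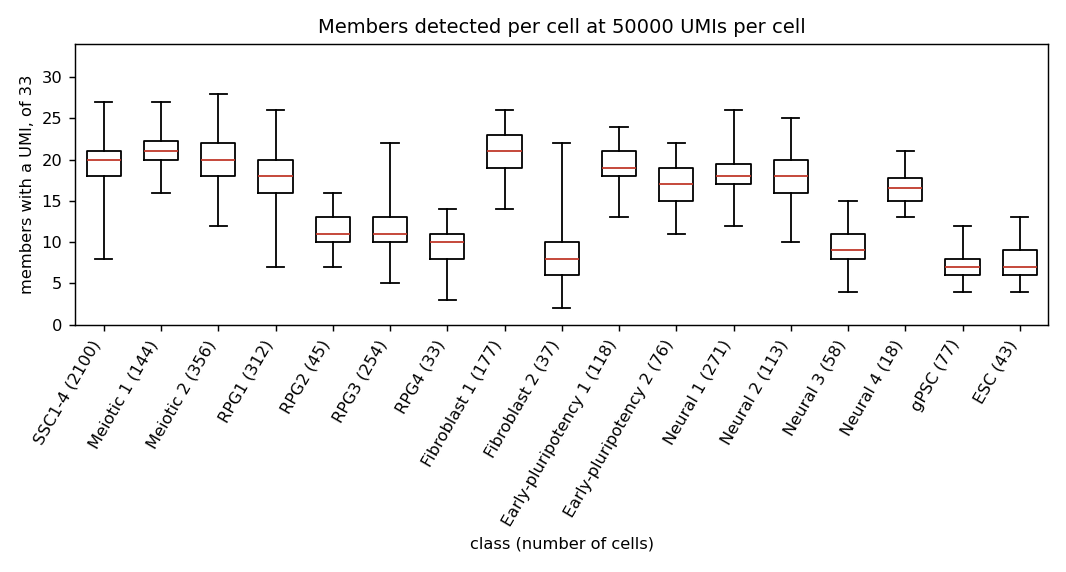
Number of the 33 members with at least 1 UMI per cell after thinning to 50000 UMIs, by cell class (box, quartiles; line, median; whiskers, lowest and highest cell). The medians are 20 in SSC1-4, 21 and 20 in the meiotic clusters, 18 in RPG1, 11 in RPG2 and RPG3, 10 in RPG4 and 7 in gPSCs and ESCs.

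Markers of later germ cells were not higher in the meiotic clusters by the test. The 14 genes of late spermatocytes and spermatids summed to 94.99 CPM in SSC1-4, 89.0 in Meiotic 1 and 99.0 in Meiotic 2, with *Acrv1*, *Tnp2* and *Prm2* at 0 in Meiotic 1, *Prm2* at 0 in Meiotic 2, and 0 of 14 called in either (4 and 2 lower, 0 higher, at an unadjusted p under 0.05, edgeR). Of 28 other meiosis genes that are no members, 0 were called in either cluster by edgeR, with 2 higher and 2 lower in Meiotic 1 and 0 higher and 3 lower in Meiotic 2 at an unadjusted p under 0.05, and their summed level was 1467 CPM in SSC1-4, 1528 in Meiotic 1 and 1496 in Meiotic 2. Markers of undifferentiated spermatogonia were lower in Meiotic 1 for 2 of 8 genes, *Gfra1* and *Nanos2*. Markers of cycling cells were lower in Meiotic 2 for 3 of 7 (*Cdk1*, *Mki67*, *Top2a*), with sums of 1671 CPM in SSC1-4, 1822 in Meiotic 1 and 1046 in Meiotic 2. Fibroblast and feeder markers were higher in Meiotic 2 for 2 of 6 (*Col1a1*, *Dcn*), with sums of 45.2, 60.03 and 98.7 CPM. The pluripotency marker *Sox2* was lower in both meiotic clusters (1 of 6), and *Sohlh2* of the differentiating spermatogonia was lower in Meiotic 2 (1 of 6). The part of these in the members' values was not tested.

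On the successful branch, few members differed at the first step. In RPG1, 0 members were higher and 2 lower than in SSC1-4, where 2.89% of all genes were higher and 1.4% lower, and 28 of 33 log2 differences were below 0, with a median of -0.25 (all genes, -0.04). The 2 were *Tex12* and *Tex15*. *Tex12*, which builds the central element with SYCE2 (chromosome 9, 50556819 to 50561325, minus strand), had 49.96 to 116 CPM over 7 libraries against 73.5 to 299 in SSC1-4 (median 151). It was 1.70-fold lower (log2 difference -0.76 ± 0.19, adjusted p = 0.00618, edgeR). *Tex15*, needed to load recombinases onto breaks, had 81.8 to 169 CPM against 158 to 409 and was 1.67-fold lower (log2 difference -0.74 ± 0.19, adjusted p = 0.00559, edgeR). Both calls were lost with the library as a block, where 0 members were called, and within either batch alone. The summed level was 2881 to 3272 CPM over the RPG1 libraries and 2906 to 4500 over those of SSC1-4, so the groups overlapped. In the same contrast 4 of 6 pluripotency markers were higher (*L1td1*, *Nanog*, *Sox2*, *Utf1*) and *Dppa3* lower, *Etv5* was higher and *Nanos3* lower among 8 undifferentiated markers, *Stra8* was lower among 6 differentiating markers and *Wt1* among 4 Sertoli markers. Their part in the members' values was not tested.

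The large difference lay between RPG1 and RPG2. The RPG2 sums were of days 12 and 14 and the RPG1 sums of days 18, 20 and 23. Cluster and day thus cannot be told apart in this contrast, within batch B2 as well. Of the 33 members, 21 were lower and 1 higher in RPG2, against 13.3% of all genes lower and 10.5% higher. The median log2 difference was -2.17 (all genes, -0.27) and the summed level was 1198, 1306 and 1471 CPM in the 3 libraries, with no overlap with RPG1. Within batch B2 alone, 16 members were lower and 0 higher. The members called lower were 6 of 8 genes of axes and cohesin, 4 of 5 of the central region, 2 of 4 of break formation, 3 of 6 of strand exchange, 4 of 6 of crossovers and 2 of 4 with other roles. *Psmc3ip*, which works with MND1 in strand invasion, was the member called higher, with 75.3, 157 and 81.0 CPM against 37.4 to 61.3 in RPG1 (log2 difference 1.01 ± 0.30, adjusted p = 0.00661, edgeR). It shares 385 bases with *Mlx* on the opposite strand. All 6 pluripotency markers were higher in RPG2 than in RPG1, with sums of 271 and 2494 CPM. Of 6 differentiating markers 3 were lower (*Rhox13*, *Sohlh1*, *Sohlh2*) and 1 higher (*Kit*). Of 14 markers of late spermatocytes and spermatids 3 were lower (*Ccna1*, *Clgn*, *Piwil1*). *Col1a1* of 6 fibroblast and feeder markers and *Sox9* of 4 Sertoli markers were lower, and 0 of 7 cycling markers were called. Their part in the members' values was not tested.

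From RPG2 to RPG3 few members differed. There, 3 were higher and 1 lower (2.61% and 2.79% of all genes). These were *Hormad1*, *Dmc1* and *Meiob*, all higher, and *Rec8*, lower. *Dmc1*, the meiotic recombinase, had 4.96, 1.34 and 7.24 CPM in RPG2 and 9.51 to 28.2 in RPG3 (log2 difference 2.04 ± 0.50, adjusted p = 0.00559, edgeR). *Meiob* had 2 UMIs in all of RPG2 and 0.680 to 5.38 CPM in RPG3. *Rec8*, a kleisin subunit of meiotic cohesin, had 20.7, 49.9 and 19.7 CPM in RPG2 and 1.27 to 14.8 in RPG3 (log2 difference -2.27 ± 0.48, adjusted p = 0.000989, edgeR). None of the 4 was called within batch B2 alone or without the RPG2 library of day 14 replicate 5, where the count was 0. Without the RPG2 library of day 12 replicate 2 the count was 2. In the same contrast *Kit*, *Rhox13* and *Stra8* (3 of 6 differentiating markers) and *Nanos3* (1 of 8 undifferentiated markers) were lower and *Wt1* (1 of 4 Sertoli markers) was higher, and their part in the members' values was not tested.

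In RPG4, 0 members were higher and 10 lower than in RPG3 (3.99% and 3.69% of all genes), with a median log2 difference of -1.49 (all genes, -0.21) and summed levels of 890 and 819 CPM. The 10 held 4 of 5 genes of the central region, 3 of 8 of axes and cohesin, 2 of 6 of crossovers, 1 of 6 of strand exchange, *Tex15*, and 0 of break formation. RPG4 rests on 21 cells in 2 libraries, both of which also held RPG3 cells. With the library as a block the count was 6, of which 3 were among the 10, and with only the compared classes in the fit it was 5. Without replicate 1 the count was 6 and without replicate 2 it was 3, namely *Syce1*, *Hormad1* and *Hormad2*. Each of these fits has 1 RPG4 library, which is assumed to vary like the other classes. In the same contrast *Gata4* and *Sox9* of the Sertoli markers were higher and *Wt1* lower (3 of 4), and *Col1a1* (1 of 6 fibroblast and feeder markers), *Dppa3* (1 of 6 pluripotency markers) and *Sohlh2* (1 of 6 differentiating markers) were lower, and their part in the members' values was not tested. The summed level of RPG4 was close to that of gPSCs (955 CPM in P1 and 815 in P15) and ESCs (924 CPM), which were not in the fit and were not tested. Single members were not all alike. *Syce2* ranked first in RPG4, gPSCs and ESCs. *Hormad1* was among the first 5 in gPSCs (84.0 CPM) and ESCs (92.2 CPM) but not in RPG4, where *Mnd1* was (63.7 CPM).

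**Figure D4:**
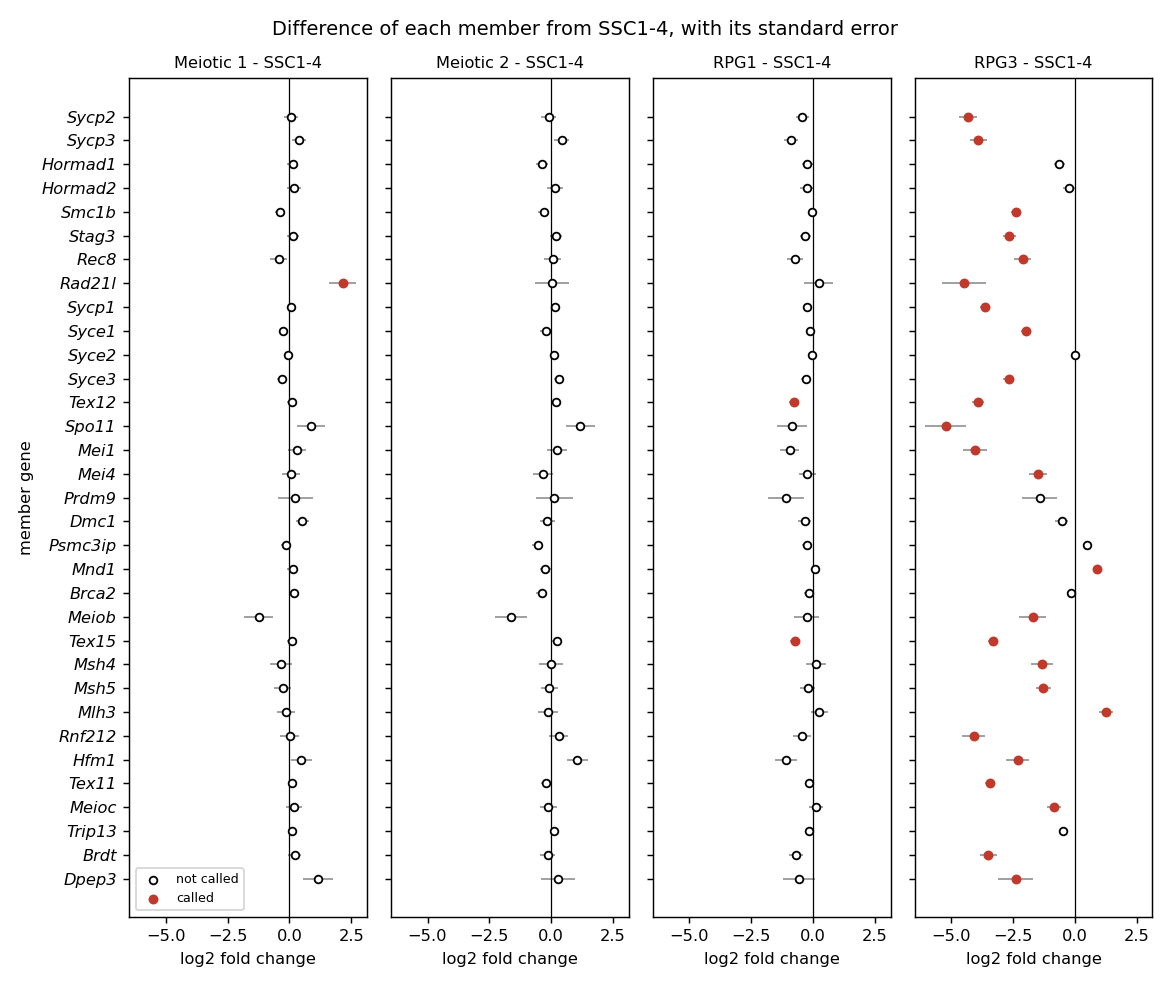
Log2 fold change ± standard error of each of the 33 members against SSC1-4 in Meiotic 1, Meiotic 2, RPG1 and RPG3 (red, called). Most points lie near 0 in the first 3 panels, with *Rad21l* at 2.15 in Meiotic 1, while in RPG3 23 members are called lower and 2, *Mlh3* and *Mnd1*, higher.

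Across the whole path, 23 members were lower and 2 higher in RPG3 than in SSC1-4, beside 26.2% of all genes lower and 19.4% higher. The median log2 difference was -2.11 (all genes, -0.25) and the summed level of RPG3, 1303 to 1559 CPM, did not overlap that of SSC1-4. Members were lower in 21 cases within batch B1 alone and in 17 within B2 alone. In the fit that kept each library as a block, 15 were called, 14 of them among the 25. By role, the median log2 difference was -2.51 for axes and cohesin, -2.67 for the central region, -2.75 for break formation, -0.34 for strand exchange, -1.81 for crossovers and -1.61 for the other roles. Other lists moved in this contrast too. All 6 pluripotency markers were higher, as were *Ccnb1* and *Cdk1* of 7 cycling markers, whose summed level was 1671 CPM in SSC1-4 and 2561 in RPG3. Of 14 markers of late spermatocytes and spermatids 6 were lower and 2 higher (*Prm1*, *Ybx2*), and 3 of 6 fibroblast and feeder markers (*Col1a1*, *Lum*, *Pdgfrb*) and *Sox9* of 4 Sertoli markers were lower. Their part in the members' values was not tested.

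The 6 members with the largest differences came from axes, central region, break formation and crossovers. *Spo11* had 0 to 0.391 CPM in the 8 RPG3 libraries, and 36.9-fold more in SSC1-4 (log2 difference -5.20 ± 0.83, adjusted p = 8.98e-08, edgeR). In RPG1 it had 0, 0, 0.0661, 3.91, 2.00, 7.69 and 5.48 CPM, and in RPG2 0, 0 and 0.186, and it was at 0 in RPG4, gPSCs and ESCs. *Spo11* was thus already low in 1 of the day 20 libraries of RPG1 and in the 2 of day 18, which were its 2 libraries of batch B2. All RPG2 sums were of batch B2, so the lower *Spo11* in RPG2 than in RPG1 rested on RPG1 libraries of batch B1. *Rad21l* had 0 to 0.680 CPM in RPG3 (22.2-fold lower, log2 difference -4.47 ± 0.88, adjusted p = 9.56e-06, edgeR). All 3 RPG2 libraries were at 0, which put RPG2 at least 13.6-fold lower than RPG1 for a floor of 3 counts over the group, and RPG4, gPSCs and ESCs were at 0 as well. With the library as a block its adjusted p was 0.149 by edgeR, and within batch B2 alone 0.0532 by edgeR.

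*Sycp2*, a core axis protein (chromosome 2, 178345293 to 178407685, minus strand), ran from 46.1 to 178 CPM in SSC1-4 (median 78.6). It had 59.3 to 132 CPM in Meiotic 1, 62.9 to 99.0 in Meiotic 2 and 38.6 to 81.6 in RPG1. It then had 6.34, 1.88 and 2.23 CPM in RPG2, 1.31 to 9.51 in RPG3 and 0.810 and 1.99 in RPG4, and 0 in ESCs. RPG1 did not overlap RPG2, and the step between them was 18.5-fold (log2 difference -4.21 ± 0.60, adjusted p = 2.76e-08, edgeR). From SSC1-4 to RPG3 it was 20.0-fold (log2 difference -4.32 ± 0.35, adjusted p = 3.57e-19, edgeR).

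*Rnf212*, a SUMO ligase that stabilises crossover sites (chromosome 5, 108729290 to 108774982, minus strand), had 0, 29.98 and 53.4 CPM as lowest, median and highest of SSC1-4 and 9.05 to 31.9 in RPG1. RPG2 had 0.551, 1.61 and 0.743 CPM, 21.7-fold lower than RPG1 (log2 difference -4.44 ± 0.82, adjusted p = 1.35e-05, edgeR). RPG3 had 0.304 to 5.26 CPM, 16.8-fold lower than SSC1-4 (adjusted p = 1.41e-12, edgeR). It was at 0 in RPG4, gPSCs and ESCs, at least 4.34-fold lower in RPG4 than in RPG3 for a floor of 3 counts over the group. *Rnf212* shares 5073 bases with the antisense gene *1700047L14Rik* on the opposite strand.

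*Mei1*, needed for break formation (chromosome 15, 82069996 to 82126814, plus strand), had 2.38 to 21.6 CPM in SSC1-4 (median 11.5), 0 to 30.6 in Meiotic 1, 9.04 to 23.7 in Meiotic 2 and 1.76 to 12.2 in RPG1. RPG2 had 0.276, 0.268 and 0.372 CPM, RPG3 0 to 1.32 and RPG4 0.405 and 0.796, with no overlap between any of these and RPG1. RPG3 was 16.2-fold lower than SSC1-4 (log2 difference -4.02 ± 0.48, adjusted p = 1.08e-11, edgeR). *Tex12* had 7.995, 4.56 and 5.57 CPM in RPG2, 5.01 to 16.5 in RPG3, 3.24 and 2.19 in RPG4 and 0.532 in ESCs. RPG3 was 15.1-fold lower than SSC1-4 (log2 difference -3.91 ± 0.24, adjusted p = 5.83e-27, edgeR), after 114 to 204 CPM in Meiotic 1 and 136 to 192 in Meiotic 2. *Tex12* overlaps *Il18* on the opposite strand over its whole length of 4507 bases. Without stated strand use the reads of these 2 genes cannot be told apart there.

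The 8 members not called between RPG3 and SSC1-4 were *Syce2*, *Hormad1*, *Hormad2*, *Dmc1*, *Prdm9*, *Psmc3ip*, *Brca2* and *Trip13*. *Syce2*, a central element protein (chromosome 8, 84872111 to 84888221, plus strand), parted from its central region partners. It had 384, 484 and 577 CPM as lowest, median and highest of SSC1-4, 375 to 569 in Meiotic 1, 453 to 547 in Meiotic 2 and 426 to 553 in RPG1. It had 344, 490 and 573 CPM in RPG2, 414 to 594 in RPG3, 375 and 285 in RPG4, 329 and 255 in gPSCs and 341 in ESCs. All classes from SSC1-4 to RPG3 overlapped. The log2 difference of RPG3 from SSC1-4 was 0.00 ± 0.09 (adjusted p = 0.986, edgeR), while *Sycp1* was 12.3-fold lower (log2 difference -3.62 ± 0.18, adjusted p = 2.62e-31, edgeR), from 358 to 963 CPM to 23.8 to 67.2. *Syce2* made up 13.5% of the members' summed level in SSC1-4 and 33.4% in RPG3. It shares 1829 bases with *Gcdh* on the opposite strand, and without stated strand use the reads of the 2 genes cannot be told apart.

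*Brca2*, which loads recombinases in mitotic and meiotic repair alike (chromosome 5, 150522630 to 150570329, plus strand), had 72.2 to 249 CPM in SSC1-4 (median 152), 89.0, 110 and 149 in RPG2, 94.0 to 205 in RPG3, 98.0 and 63.5 in RPG4 and 107 in ESCs. RPG3 differed from SSC1-4 by -0.16 ± 0.17 on the log2 scale (adjusted p = 0.443, edgeR). *Brca2* shares 4048 bases with *Gm42531* on the same strand and 6218 with *Gm42529* on the opposite strand. *Trip13*, an ATPase that also acts in the mitotic checkpoint (chromosome 13, 73911347 to 73937784, minus strand), had 100 to 177 CPM in SSC1-4, 70.6 to 136 in RPG3, 89.1 and 130 in RPG4 and 151 in ESCs. Its log2 difference of -0.47 ± 0.14 passed the p threshold but not the fold limit (adjusted p = 0.00272, edgeR).

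*Hormad1*, an axis protein that monitors synapsis (chromosome 3, 95559677 to 95587671, plus strand), differed between neighbouring clusters at 3 steps. It had 58.9 to 191 CPM in SSC1-4 (median 107) and 64.7 to 115 in RPG1, 6.62, 9.38 and 61.9 in RPG2, 23.8 to 107 in RPG3, 4.45 and 8.95 in RPG4, 89.0 and 79.0 in gPSCs and 92.2 in ESCs. RPG2 was lower than RPG1 (log2 difference -1.82 ± 0.40, adjusted p = 0.000236), RPG3 higher than RPG2 (1.44 ± 0.39, adjusted p = 0.0131) and RPG4 10.3-fold lower than RPG3 (-3.36 ± 0.55, adjusted p = 5.79e-06, edgeR). The RPG2 library at 61.9 CPM, of day 14 replicate 6, lay among those of RPG3. The difference between RPG3 and RPG2 was not called within batch B2 alone or without the RPG2 library of day 14 replicate 5. Neither gPSCs nor ESCs were in the fit, so they were not tested. The difference of RPG3 from SSC1-4 was -0.61 ± 0.21, under the fold limit (adjusted p = 0.0111, edgeR), and without the RPG3 library of day 20 replicate 2 it was called at -0.74.

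The 2 members higher in RPG3 than in SSC1-4 were *Mlh3*, which resolves crossover intermediates, and *Mnd1*, the partner of PSMC3IP. *Mlh3* had 0 to 35.6 CPM in SSC1-4 (median 14.9) and 14.7 to 53.0 in RPG3 (log2 difference 1.26 ± 0.29, adjusted p = 0.000170, edgeR). *Mnd1* had 9.50 to 117 CPM in SSC1-4 (median 63.5) and 87.7 to 142 in RPG3 (log2 difference 0.91 ± 0.17, adjusted p = 4.39e-06, edgeR), and 8.05 in ESCs. *Mnd1* and *Psmc3ip* act as a pair, and *Psmc3ip* had 73.6 to 99.6 CPM in RPG3 against 16.6 to 140 in SSC1-4 (log2 difference 0.50 ± 0.17, adjusted p = 0.0102, edgeR), under the fold limit.

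The 28 other meiosis genes, listed apart from the members, were counted at each of these steps. In RPG1, 0 were higher and 1, *Stra8*, lower than in SSC1-4. From RPG1 to RPG2, 1 was higher and 15 lower, from RPG2 to RPG3 3 higher and 2 lower, and from RPG3 to RPG4 1 higher and 6 lower. RPG3 had 3 higher and 20 lower than SSC1-4. Their summed level in SSC1-4 was 1467 CPM, that of RPG1 was 1192 and that of RPG2 626, with 912 for RPG3, 428 for RPG4 and 1006 for ESCs. The 6 markers of differentiating spermatogonia summed to 685 CPM in SSC1-4, 509 in RPG1, 163 in RPG2 and 77.4 in RPG3, though 1 of them, *Kit*, was higher in RPG2 than in RPG1. The 8 markers of undifferentiated spermatogonia summed to 608, 495, 895 and 653 CPM in the same order, but members of that list moved apart: between RPG2 and RPG1, *Gfra1*, *Nanos2* and *Zbtb16* were lower and *Nanos3* and *Sall4* higher, and between RPG3 and SSC1-4, 5 of 8 were lower (*Gfra1*, *Id4*, *Nanos2*, *Nanos3*, *Zbtb16*) and 2 higher (*Etv5*, *Sall4*). For both lists, their part in the members' values was not tested.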

How the data were processed

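Single cells had been sequenced with a modified STRT-seq protocol. The authors extracted cell barcodes and UMIs with UMItools, aligned reads to mm10 (GRCm38) with STAR 2.7.2b, assigned them with featureCounts 2.0.0 and deposited the UMI counts, not normalized, with a cluster name for each cell. Cells had passed their limits on detected genes and mitochondrial share. Annotated UMIs per library of the original condition ran from 15975410 to 34609591. No cell barcode was shared between libraries, and no libraries of a day were alike within sampling noise. Methylation and Trio-seq2 samples were not analysed here.

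Counts were summed per library and class (at least 5 cells). All classes of the original condition, without gPSCs and ESCs, were fitted in 1 model with edgeR 4.0.16 in R 4.3.3 (TMM, filterByExpr, quasi-likelihood). The standard error is the log2 fold change divided by the square root of its F. Libraries that hold several classes were entered as a block in an alternative. Whole libraries were fitted by day in a second model. DESeq2 1.42.0, other size factors, filters, batches and left-out libraries were alternatives. Nothing in the labels shows libraries of a day to be separate cultures, so p-values measure the spread between these libraries, which may be technical. The model was tested on simulated counts with known changes.

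The members and lists were chosen with earlier results of these data known. The members given library by library were those called in a meiotic cluster, *Spo11* and *Dpep3*, and between RPG3 and SSC1-4 the 6 called with the largest log2 fold change and the 4 not called with the highest level in SSC1-4. Any other gene was named after its values were seen. Confidence intervals are at 95% and floors of 3 counts cover counting error only.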

Additional observations from a re-analysis of the deposited data

Results flagged for a closer look

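Among 74 groups of 4 to 10 libraries, 4 held a value far from the rest of its group, and chance alone gives about 1 in 20. *Rad21l* had 46.4 CPM in Meiotic 1 of day 16 replicate 5, and the next highest of the 6 libraries had 8.04. *Dpep3* had 81.6 CPM in all cells of day 16 replicate 6, and the next had 28.98. The 33 members summed to 1915 CPM in all cells of day 27 replicate 1, below the next lowest of 2868 among 5 libraries. In Fibroblast 1 they summed to 3806 CPM in day 8 replicate 1, above the next of 3400 among 4 libraries.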

How the results depend on the processing

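Under the alternatives, 139 counts of members called stayed within 1.5 times the count reported and 37 did not. Of the values of single members, 303 kept direction and side of the threshold, 20 lost their call, 3 gained one and 18 reversed. The cause of the changes was not tested. In Meiotic 1 against SSC1-4, the 1 call became 0 with at least 10 cells per sum, with the library as a replicate block, in sums per batch and day, in batch B2 alone, at the stricter threshold (natural-log fold change of 1 and adjusted p below 0.01), and without Meiotic 1 replicate 5 (range without 1 library, 0 to 1). In Meiotic 2 the count of 0 became 1 with DESeq2 and with at least 10 cells, *Meiob* both times, and between the meiotic clusters the block gave 1, *Dmc1*. In RPG1 against SSC1-4, the 2 calls became 4 with at least 10 cells and with only the compared classes, 1 in sums per batch and day, 0 with the block, in either batch and at the stricter threshold, and 1 to 3 without 1 library, with 1 without day 18 replicate 3, day 18 replicate 5 or day 23 replicate 2. In RPG2 against RPG1, 22 became 14 in sums per batch and day. In RPG3 against RPG2, 4 became 1 with only the compared classes, 0 in sums per batch and day and in batch B2, 2 at the stricter threshold, and 0 to 5 without 1 library. In RPG4 against RPG3, 10 became 6 with the block, 5 with only the compared classes, and 3 to 12 without 1 library. In RPG3 against SSC1-4, 25 became 15 with the block. On day 16 against days 14 and 18, 3 became 1 in cells of SSC1-4 and the meiotic clusters only (*Dpep3*) and in batch B1, and 0 in batch B2 and at the stricter threshold. In SSC1-4 cells of day 16, 3 became 1 to 6 without 1 library. Reversed values, none of them called in either form, were as follows on the log2 scale. *Dpep3* with the block was -0.69 in Meiotic 1 and -0.33 in Meiotic 2. *Rad21l* in Meiotic 2 was -0.024, -0.43 and -0.052 without replicate 1, 2 or 3 (range without 1 library -0.43 to 0.29), -0.55 in sums per batch and day and -2.83 in batch B2, where Meiotic 2 has 1 library that is assumed to vary like the other classes. *Syce2* in RPG3, at 0.003, was -0.012 without the filter, -0.024 with batch as a covariate, -0.0242 in sums per batch and day, -0.01996 with the block, -0.0054 with only the compared classes, -0.047 in batch B1, and -0.0073, -0.0032, -0.058 and -0.023 without day 12 replicate 2, day 18 replicate 3, day 18 replicate 5 or day 23 replicate 2 (range -0.058 to 0.037). *Brca2* in RPG3 was 0.23 in batch B2. Replicate numbers of days 14, 16 and 18 did not pair the libraries: 5 of 18 same-numbered pairs had deviations correlated above 0.1 (r from -0.43 to 0.43), and of 36 comparisons of a library with the libraries of another of these days, 6 gave the best correlation at its own number. With the number as a block, 3 members were called on day 16, 2 of them among the 3 reported.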

Other observations

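Outside the comparisons, classes of the failed branches kept the module to different degrees. Neural 1 had 3308 CPM summed over the members (8 libraries) and Neural 2 had 3222 (2 libraries), while Neural 3 had 831 (2 libraries), with a median of 9 members per thinned cell against 18 in Neural 1. Fibroblast and feeder markers summed to 1220 CPM in Neural 3 and 32.1 in Neural 1, and Sertoli markers to 315 and 26.2, and their part in the members' values was not tested. Fibroblast 2 ranged from 446 to 2243 CPM over 3 libraries, with fibroblast and feeder markers at a mean of 3688 CPM. Early-pluripotency 1 and 2 had 2911 and 3102 CPM. These are values only, with no test.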
